A study of Homo sapiens with 2 samples.

Results

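The ZNF genes that lie outside chromosome 19 are a dispersed set of zinc finger genes, and their transcripts were compared between control and LINP1-depleted cutaneous squamous cell carcinoma (cSCC) cells. The members were the protein-coding genes of the deposited count table whose symbol was ZNF followed by digits and whose position was on any chromosome but 19. They were selected on the read counts of both libraries, which had to sum to at least 10. There were 238 members among 19840 genes with at least 10 reads, out of 44591 genes in the table. The symbol and position rule held 265 genes, of which 27 were below the read minimum, 8 of these with 0 reads in both libraries and 19 with 1 to 9. Just inside the minimum were ZNF501 with 7 reads in the control and 5 in the depleted cells, ZNF648 with 4 and 8, and ZNF385B with 7 and 6. Just outside it were ZNF280B with 2 and 3 reads, ZNF727 with 1 and 4, and ZNF843 with 3 and 2.

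The cells were HSC-1, an established human line labelled as cSCC, transfected at about 70% confluency with a control siRNA (siNC) or an siRNA against the long noncoding RNA LINP1 (siLINP1), kept for 6 h without serum and then for 24 h with serum. Total RNA of each condition was sequenced as 1 library, so no difference had a replicate check and no p-value was computed. The siNC library held 18829544 reads and the siLINP1 library 15383081. The study designed a pair of siRNAs against LINP1, shown here because they define the comparison; the sources used here do not give which of them made this library.
siLINP1_01: ccaactgcgggacttcaga
siLINP1_02: cactctccagcctgcaaga

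LINP1 itself had 167 reads in siNC and 23 in siLINP1, a log2 fold change of -2.65 with an interval from -3.35 to -2.02. All fold changes are siLINP1 over siNC on the log2 scale, after scaling by median-of-ratios size factors, with no pseudocount, and where a pair of read counts or RPKM levels is given the siNC value stands first. Their intervals are exact 95% Clopper-Pearson intervals of the siLINP1 share of a gene's reads, turned into a fold, and cover counting error only. Squamous markers were at unequal levels and did not share a direction. KRT5 had 32 control reads and 24 after depletion, TP63 6 and 8, CDH1 14 and 3, EPCAM 12 and 8, and DSG3 5 and 5. ITGB4 had 5990 and 3962, KRT14 243 and 87, SFN 264 and 138, and KRT17 59 and 54. KRT6A had 31 and 45, with an interval above 0 (0.06 to 1.46). Of the 10 squamous markers 5 were under 1 RPKM (reads per gene length and library total) in both libraries, and the 10 summed to 6656 and 4334 reads, mostly from ITGB4. Of the 4 mesenchymal genes VIM had 61097 and 41992 reads, FN1 1151 and 753, COL1A1 190 and 79, and ZEB1 697 and 883, with log2 fold changes of -0.33, -0.40, -1.06 and 0.55. The blood and endothelial markers were all under 1 RPKM. The part of these marker levels in the results below was not tested. In a bulk library, more cells with a transcript and more transcript per cell cannot be told apart.

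Proteins of the ZNF family carry C2H2 zinc fingers, short loops held by a zinc ion between paired cysteines and histidines, which in tandem arrays read DNA and in some members bind RNA or protein. Many of them also carry a KRAB domain, which recruits the corepressor TRIM28 and through it histone methylation and heterochromatin proteins, above all at transposable elements. The family grew by tandem duplication, with its largest clusters on chromosome 19, while the members on other chromosomes include old genes with roles in ribosome quality control, mitosis and transcription.

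As a whole, the ZNF genes off chromosome 19 had slightly more reads in siLINP1 than in siNC. They took 0.577% of all reads in siNC and 0.734% in siLINP1. Their median log2 fold change was 0.26, with quartiles of -0.04 and 0.58, beside -0.02 over all 19840 genes and -0.04 over the 14275 protein-coding genes. Of the members, 171 (71.8%) were above 0 and 67 below it, while 46.1% of protein-coding genes were above 0. The median level per gene length was 3.30 RPKM in siNC and 4.15 RPKM in siLINP1, and the level in RPKM was higher in siLINP1 for 184 members. RPKM is scaled by library total, and its median was also higher in siLINP1 over all genes (4.10 and 4.49) and protein-coding genes (7.16 and 7.89). With total-count scaling the median log2 fold change of all genes was 0.06, so the 184 cannot be set beside the 171. With size factors the median shift of the members was small, a fold of 1.20, and it was spread over many genes.

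The interval lay above 0 for 113 members (47.5%), beside 23.0% of all genes. It lay below 0 for 26 members (10.9%), beside 25.6% of all genes, and held 0 for the other 99. More than 1.5-fold higher in siLINP1 were 59 members, where 14.4% of all genes passed that limit, and more than 1.5-fold lower were 6, where 13.0% did. More than 2-fold higher were 21 members, with 6.74% of all genes past that limit, and more than 2-fold lower were 3, with 5.33% of all genes. The whole interval lay above a 2-fold rise for 5 members (2.10%), a share close to the 1.59% of all genes. It lay below a 2-fold fall for none of the 238 members and for 85 of all 19840 genes. The members were chosen with a shift of these genes known, so these shares describe the set and are not evidence of its direction.

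**Figure D1:**
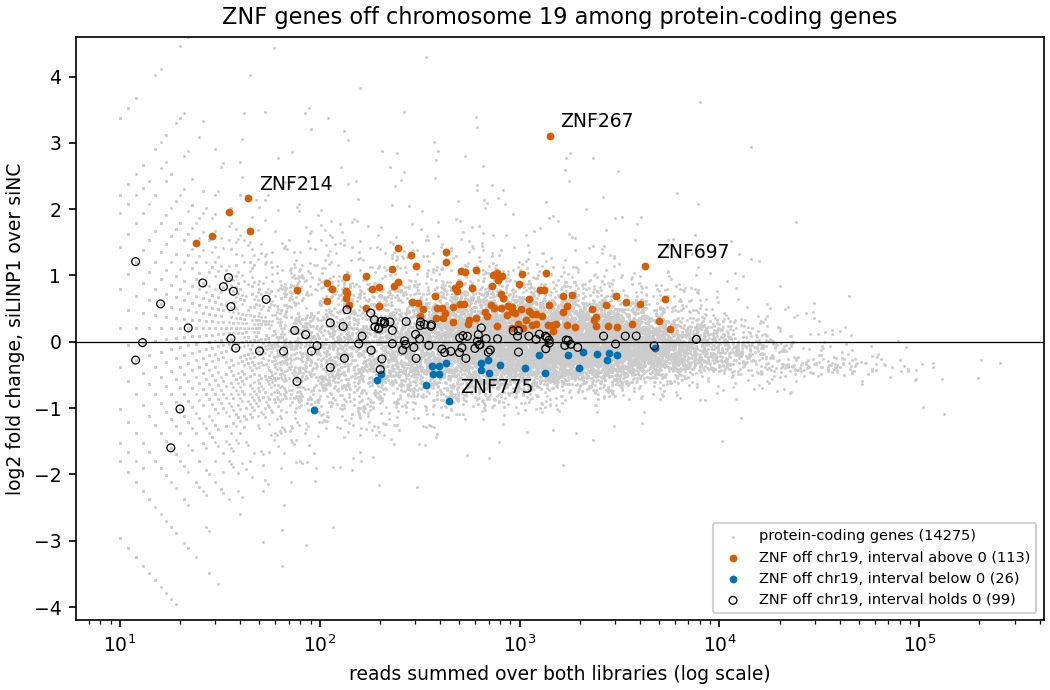
Each point is a gene, with the reads summed over both libraries on a log axis and the log2 fold change of siLINP1 over siNC on the vertical axis; 1 library per condition. The 113 orange members have an interval above 0, the 26 blue ones below 0 and the 99 open ones an interval that holds 0, and ZNF267 at 3.11 is the highest member.

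The median was above 0 in each class of read depth, least firmly in the class of fewest reads. The median log2 fold change was 0.21 for the 29 members with 10 to under 100 reads, 0.31 for 47 with 100 to under 300, 0.27 for 91 with 300 to under 1000, and 0.24 for 71 with 1000 or more. The protein-coding genes in the same bins had medians of -0.06, -0.06, -0.01 and -0.04. For the 29 members with fewest reads, the interval of the median over its genes ran from -0.10 to 0.83. Of these 29, 6 (20.7%) had an interval above 0, 1 (3.45%) below it, and 22 had an interval that held 0. The shares above and below 0 were 12.1% and 13.1% for the protein-coding genes of that depth. Of the 71 members with 1000 or more reads, for which the counting error is smallest, 41 (57.7%) had an interval above 0 and 11 (15.5%) below it, beside 31.6% and 40.8% of the protein-coding genes of that depth.

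ZNF267, a KRAB zinc finger gene on chromosome 16 (GRCh37, chr16:31885079-31928629, plus strand), had the largest difference. It had 167 reads in siNC and 1247 in siLINP1, or 2.56 and 23.4 RPKM. Its log2 fold change was 3.11 with an interval from 2.88 to 3.35, and the next highest value among the 209 members with at least 100 reads was 1.42. No other annotated gene with at least 10 reads overlapped ZNF267, and 0.09% of the 50-base windows of its transcript occurred in a transcript of another gene. Within 500 kb on either side lay 17 other genes with at least 10 reads, 7 of them protein-coding. The interval was above 0 for 3 of the 17 and for 0 of the 7 protein-coding ones. Another member in this region, ZNF720, had 62 and 75 reads and an interval that held 0, and no protein-coding neighbour had an interval above 0. The 3 that did were noncoding, and among them the pseudogene LOC100419896, which lies inside ZNF720 on the same strand, had 3 and 28 reads and a log2 fold change of 3.43 (1.74 to 5.79), HERC2P4 had 61 and 95 reads (0.85), and LOC102723753 had 141 and 158 (0.37).

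The members with the highest near end of the interval after ZNF267 were ZNF214, ZNF184, ZNF697 and ZNF597. ZNF214 (chr11:7020549-7041586, minus strand), which lies in a region of chromosome 11 tied to Beckwith-Wiedemann syndrome, had only 9 reads in siNC and 35 in siLINP1, with a log2 fold change of 2.17 and a wide interval from 1.08 to 3.41. ZNF184 (chr6:27371789-27440897, minus strand), a KRAB gene beside the large histone gene cluster, had 134 and 297 reads and a log2 fold change of 1.36 (1.06 to 1.66). ZNF697 (chr1:120162000-120190390, minus strand) was the best measured of these with 1470 and 2797 reads, 15.4 and 35.8 RPKM, and a log2 fold change of 1.14 (1.05 to 1.23). ZNF597 (chr16:3482422-3493537, minus strand), a maternally expressed imprinted gene, had 75 and 173 reads and a log2 fold change of 1.42 (1.02 to 1.83). For these 4 genes and ZNF267 the whole interval was above a 2-fold rise, and apart from ZNF214 the counts behind them were far from the minimum of 10.

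The start regions of the 3 best measured of these genes are shown because the members were higher together although their genes lie apart. They are RefSeq promoter windows of GRCh38.p14, with 250 bases before and 50 after the annotated start, at chr16:31873557-31873856 on the plus strand for ZNF267, chr6:27473056-27473355 on the minus strand for ZNF184 and chr1:119648217-119648516 on the minus strand for ZNF697. Capitals mark the motifs searched on both strands: the GC box GGGCGG, the CCAAT box and the ETS core CCGGAAGT.
ZNF267: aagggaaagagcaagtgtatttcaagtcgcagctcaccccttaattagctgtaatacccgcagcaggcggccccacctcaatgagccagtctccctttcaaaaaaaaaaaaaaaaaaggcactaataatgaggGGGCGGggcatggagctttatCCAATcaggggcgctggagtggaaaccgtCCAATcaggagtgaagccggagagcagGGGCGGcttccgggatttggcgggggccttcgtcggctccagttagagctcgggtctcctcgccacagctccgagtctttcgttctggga
ZNF184: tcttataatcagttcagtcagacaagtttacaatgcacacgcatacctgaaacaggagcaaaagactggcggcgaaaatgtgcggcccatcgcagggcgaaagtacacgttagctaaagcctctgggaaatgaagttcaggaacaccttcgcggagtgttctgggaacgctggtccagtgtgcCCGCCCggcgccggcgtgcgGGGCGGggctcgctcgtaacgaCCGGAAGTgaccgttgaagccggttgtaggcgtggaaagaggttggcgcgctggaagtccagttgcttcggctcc
ZNF697: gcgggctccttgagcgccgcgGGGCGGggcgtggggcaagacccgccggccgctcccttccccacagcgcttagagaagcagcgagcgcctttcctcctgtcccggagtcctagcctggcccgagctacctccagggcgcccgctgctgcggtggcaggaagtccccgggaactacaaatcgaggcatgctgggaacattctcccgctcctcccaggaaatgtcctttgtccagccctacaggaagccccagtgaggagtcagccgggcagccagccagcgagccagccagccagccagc
ZNF267 held a pair of GC boxes and a pair of CCAAT boxes in this window, ZNF184 held a pair of GC boxes and an ETS core, and ZNF697 held a single GC box near its upstream end.

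Promoter windows were matched by gene identifier for 198 of the 238 members, among them 92 with an interval above 0. GGGCGG occurred in 62.1% of the windows of members, in 60.9% of those with an interval above 0, in 67.9% of 11512 protein-coding genes and in 45.0% of all 35116 windows. CCAAT occurred in 43.4% of members, 47.8% of those with an interval above 0, 36.6% of protein-coding genes and 34.6% of all windows. CCGGAAGT occurred in 15.2%, 14.1%, 8.07% and 4.14% of the same groups, and the TATA box TATAAA in 4.04%, 4.35%, 6.24% and 11.5%. The start regions of the members had a median GC content of 62.7%, beside 65% for protein-coding genes. Their shares of CCGGAAGT and CCAAT were higher than those of protein-coding genes, and their shares of GGGCGG and TATAAA were lower. The members with an interval above 0 had motif shares close to those of all members. Motifs of inducible factors were found in few windows: the AP-1 site TGANTCA was in 4.04% of members and 2.17% of those with an interval above 0, the CRE TGACGTCA in 4.55% and 4.35%, the ISRE core in 2.02% and 3.26%, and the NF-kB core in 0.505% and 1.09%. In protein-coding genes these 4 were found in 4.93%, 3.15%, 2.91% and 0.599%, and in all windows in 7.71%, 1.85%, 3.57% and 0.558%. They were thus in few windows of every group, and the CRE share of the members was above that of both. A match or its absence describes these letters in this window only.

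**Figure D2:**
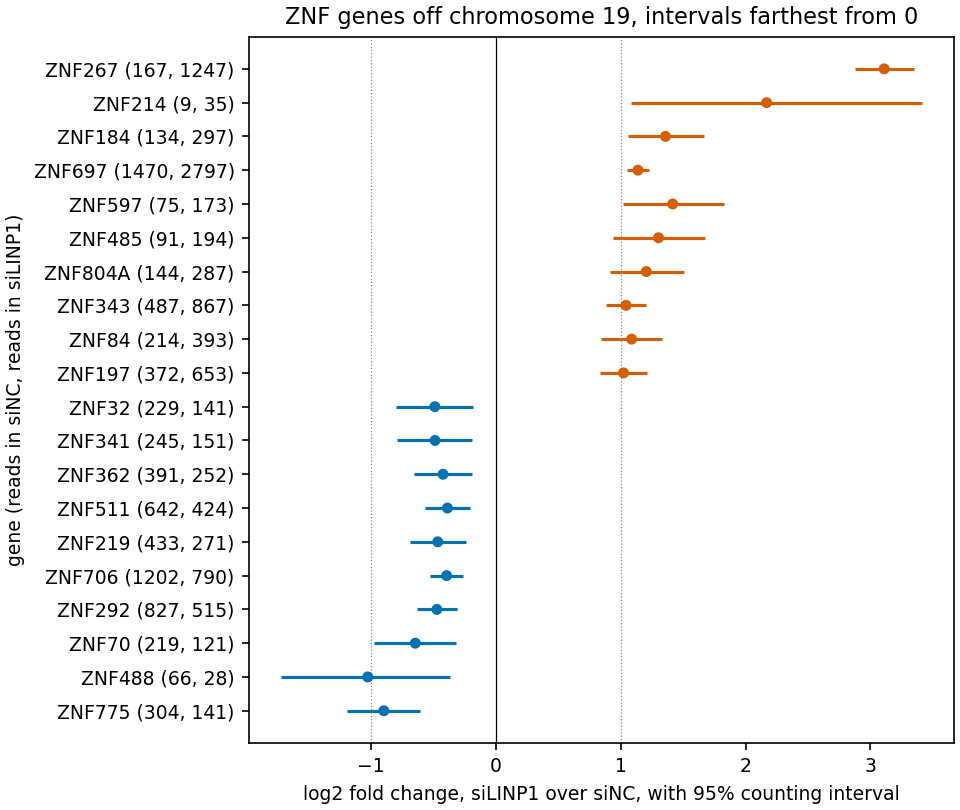
Points are the log2 fold changes of siLINP1 over siNC for the 20 members whose interval stood farthest above (10, orange) or below 0 (10, blue), bars are 95% counting intervals, and the read counts in siNC and siLINP1 follow each name. Dotted lines mark 2-fold. The 5 upper intervals lie wholly beyond 2-fold, while no lower interval does.

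The next 5 members in this order were ZNF485, ZNF804A, ZNF343, ZNF84 and ZNF197. ZNF485 had 91 and 194 reads (log2 fold change 1.30), and ZNF804A, a gene known from genetic studies of schizophrenia, had 144 and 287 (1.20). ZNF343 had 487 and 867 reads (1.04), with 15.4% of its 50-base windows shared with another gene. ZNF84 had 214 and 393 reads (1.09), and ZNF197, whose product binds the von Hippel-Lindau protein, had 372 and 653 (1.02). Their point estimates were all above 2-fold, but the counting intervals reached below it, the lowest end being 0.84. Members with few reads also had high ratios that their counts hold less firmly. Chosen after its values were seen, ZNF141 had 8 and 27 reads and a log2 fold change of 1.96 with an interval from 0.79 to 3.31.

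The members that were lower in siLINP1 were ordered in the same way, by the interval end nearer to 0, and differed by less. ZNF775 had 304 and 141 reads, and its log2 fold change of -0.90 (-1.20 to -0.61) was the lowest among members with at least 100 reads. ZNF488, a regulator of oligodendrocyte differentiation, had 66 and 28 reads and a value of -1.03 (-1.72 to -0.37). It was 1 of the 3 members more than 2-fold lower, and the other 2, ZNF385D with 14 and 4 reads and ZNF396 with 14 and 6, had intervals that held 0. ZNF70 had 219 and 121 reads (-0.65), and ZNF292, a large zinc finger factor mutated in neurodevelopmental disorders, had 827 and 515 (-0.47, interval -0.64 to -0.31). ZNF706 had the most reads of the first 10 in this order, 1202 and 790 (-0.40, interval -0.53 to -0.27).

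The other 5 of these 10 were ZNF219, ZNF511, ZNF362, ZNF341 and ZNF32, some of them with smaller folds than members of fewer reads that this order leaves out. ZNF341, which drives transcription of STAT3, had 245 and 151 reads with a log2 fold change of -0.49. ZNF32 had 229 and 141 reads (-0.49), ZNF362 391 and 252 (-0.42), ZNF219 433 and 271 (-0.47) and ZNF511 642 and 424 (-0.39). ZNF219, ZNF511, ZNF32 and ZNF775 each overlapped a gene on the opposite strand. The strand setting of the counting is not given in the sources used here, so reads of such a pair cannot be told apart. ZNF219 overlapped ARHGEF40, which had 1173 and 1259 reads, and ZNF511 overlapped TUBGCP2 with 2011 and 1666, whereas the antisense gene over ZNF775 had only 5 and 8 reads.

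Members with a KRAB pattern had a higher median than those without. The pattern, a short motif of the KRAB A box, was searched in the protein translated from the GENCODE transcript on GRCh37 for 231 members and was found in 71. It does not find every KRAB domain, so its absence describes the pattern only. With the pattern, the median log2 fold change was 0.33 (quartiles 0.07 and 0.77), 57 of 71 were above 0, and the interval was above 0 for 36 and below 0 for 3. Without it, the median of 160 members was 0.23 (quartiles -0.07 and 0.53), 109 were above 0, and the interval was above 0 for 75 and below 0 for 23. More than 2-fold higher were 9 members with the pattern and 12 without, and the 3 that were more than 2-fold lower were all without it. The distributions overlapped over most of their range.

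The median also differed with the number of C2H2 finger patterns in the protein. The 39 members with 0 to 3 patterns had a median log2 fold change of 0.09, the 91 with 4 to 9 had 0.24 and the 101 with 10 or more had 0.42. The interval was above 0 for 15, 41 and 55 of these and below 0 for 6, 9 and 11. Among members with at least 10 patterns, the median was 0.56 for the 45 with a KRAB pattern and 0.27 for the 56 without. These classes also differed in the median GC content of their transcripts. It was 49.0% with 0 to 3 patterns, 46.3% with 4 to 9 and 42.6% with 10 or more. With 10 or more patterns it was 40.7% with a KRAB pattern and 47.5% without. The part of GC content in these differences was not tested. Across the 205 members with at least 100 reads and a protein, the number of patterns and the log2 fold change had r = 0.16 and rho = 0.20, a weak relation across genes, which share the same 2 libraries and are not replicates.

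**Figure D3:**
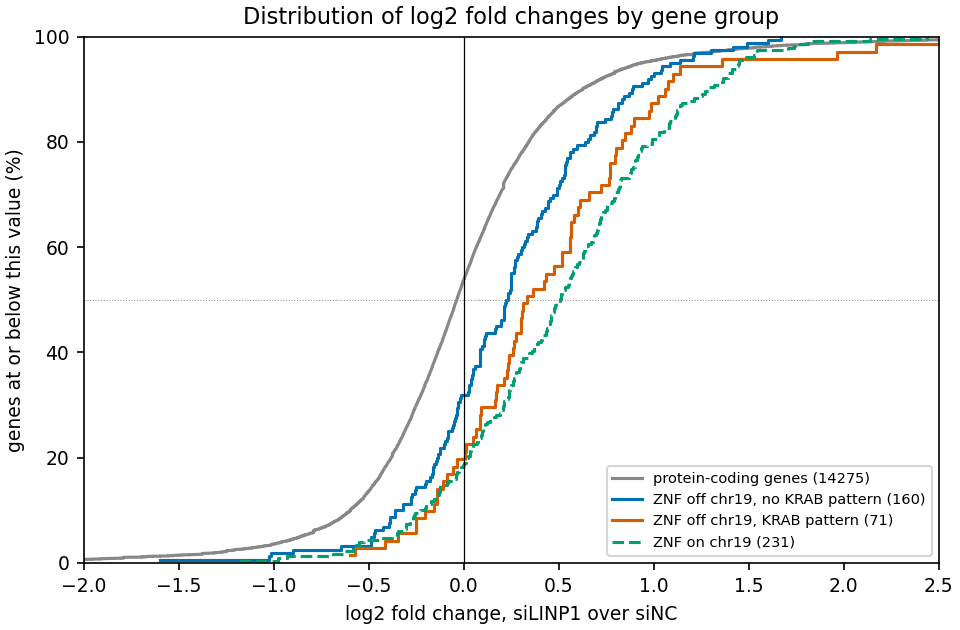
Curves give the percentage of genes at or below each log2 fold change of siLINP1 over siNC, for members with (71) and without (160) a KRAB pattern, ZNF genes on chromosome 19 (231) and protein-coding genes (14275). Over most of the range the curves of the ZNF groups lie to the right of that of protein-coding genes. They cross the dotted 50% line at 0.33 with the KRAB pattern, 0.23 without it and 0.51 on chromosome 19, beside -0.04 for protein-coding genes. The axis ends leave out the largest values.

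ZNF genes on chromosome 19 taken by the same rule had a larger median over all read depths. Their 231 members had a median log2 fold change of 0.51, with 188 above 0 and 45 more than 2-fold higher, beside 0.26, 171 and 21 for the 238 members off chromosome 19. The interval was above 0 for 140 and below 0 for 14. The order was the other way among genes with 1000 or more reads, with medians of 0.12 for 23 genes on chromosome 19 and 0.24 for 71 off it, and among genes of 50% GC content or more, with -0.09 for 29 and 0.07 for 80. The KRAB pattern was found in 159 of 228 ZNF genes on chromosome 19 with a protein, and their median was 0.55, beside 0.33 for the 71 off it. Among genes without the pattern the medians were 0.39 for 69 genes on chromosome 19 and 0.23 for 160 off it. The 78 genes with ZFP, ZSCAN, ZKSCAN or ZBTB names had a median of 0.25, with an interval above 0 for 36 and below 0 for 9. They were taken by name alone, without a check for zinc fingers, and on any chromosome, 19 included. With 1 library per condition, these differences between groups of genes have no test.

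Transcript base composition moved with the result. Transcripts of the members had a median GC content of 45.3%, those of ZNF genes on chromosome 19 42.4% and those of protein-coding genes 48.7%. Members under 42% GC had a median log2 fold change of 0.37 (n = 90), those from 42% to under 50% had 0.32 (n = 64) and those of 50% or more had 0.07 (n = 80), beside 0.08, 0.03 and -0.13 for protein-coding genes in the same classes. In the class of 50% or more, 24 of the 80 members (30.0%) had an interval above 0 and 20 (25%) below it, beside 18.4% and 40.2% of protein-coding genes. In the class under 42%, these counts were 51 (56.7%) and 2 (2.22%) of 90, beside 35.6% and 20.9% of protein-coding genes. Of the 10 lower members named above, ranked by the interval end nearer to 0, 7 had a GC content above 50%, and of the 10 higher ones 1 did. By fold alone, the lower members of few reads ZNF385D (37.7%) and ZNF396 (39.3%) had a low GC content, and ZNF750, at 8 and 21 reads among the highest folds, had 52.9%.

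Across the 207 members with at least 100 reads and a transcript, GC content and log2 fold change had r = -0.38 and rho = -0.35, and across 11655 protein-coding genes r = -0.23 and rho = -0.27. After removal of the trend with GC content and length of the transcript, fitted across protein-coding genes with at least 100 reads, the median of these 207 members was 0.23 where it had been 0.26, and 148 were above 0. That of the members with a KRAB pattern was 0.35 where it had been 0.36 (n = 61), and without the pattern 0.18 where it had been 0.23 (n = 144). The trend removed was that of protein-coding genes, whose r was weaker than that of the members. Part of the members' own relation with GC content may therefore remain in these medians. In the class of 50% GC or more, the interval of the members' median over its genes ran from -0.05 to 0.20. The part of GC content in the shift was not tested.

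**Figure D4:**
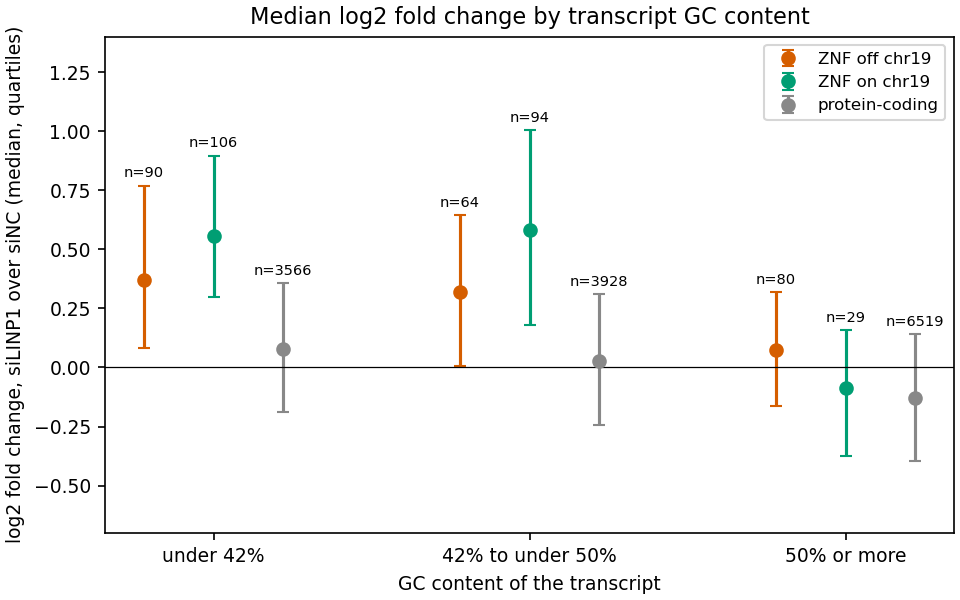
Points are median log2 fold changes of siLINP1 over siNC in 3 classes of transcript GC content, and bars run from the lower to the upper quartile of the genes in each class, with the number of genes above. The median of the ZNF genes off chromosome 19 is 0.37, 0.32 and 0.07 from the lowest to the highest GC class, above that of protein-coding genes in each.

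The 5 members with the highest levels per gene length all belonged to a list of ZNF genes whose products act on RNA, ribosomes or the spindle. ZNF598, the ubiquitin ligase that marks collided ribosomes, had 4063 and 3606 reads, 64.0 RPKM in siNC and 69.6 in siLINP1, with a log2 fold change of 0.04 (-0.03 to 0.10). ZNF593, a factor of large ribosomal subunit assembly, had 61.4 and 60.4 RPKM and -0.11 (-0.26 to 0.05), and the RNA-binding ZNF385A had 50.2 RPKM in siNC, nearly the same level in siLINP1, and -0.09 (-0.17 to -0.004). ZNF622, which also binds the large ribosomal subunit during its maturation, had 1272 and 1767 reads, 39.9 and 67.9 RPKM, and 0.68 (0.58 to 0.79). ZNF207 (BuGZ), a spindle and kinetochore protein that binds BUB3, had 1761 and 2267 reads, 40.3 and 63.4 RPKM, and 0.57 (0.48 to 0.66). ZNF622 and ZNF207 were thus higher in siLINP1, and the intervals of ZNF598 and ZNF593 held 0.

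All 11 genes of the list with RNA, ribosome or spindle roles were members, with a median log2 fold change of 0.09. That median was 0.32 for the genes of the list that overlapped no other gene, 0.17 with total-count scaling and 0.14 with the trend in GC content and length removed. The interval was above 0 for 5 and below 0 for 1, ZNF385A, whose interval held 0 with TMM scaling and with total-count scaling. The RNA-binding ZNF106 had 2404 and 2592 reads (0.32, interval 0.24 to 0.40).

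Members known to regulate transcription through partner proteins went in both directions. Of 31 names in that list 29 were members, with a median log2 fold change of 0.22, 18 above 0, an interval above 0 for 17 and below 0 for 6. With the trend in GC content and length removed, this median was 0.11. ZNF609, a partner of the cohesin loader, had 2848 and 2820 reads (0.20, interval 0.12 to 0.27), and ZNF217, an oncogene product that binds CtBP and CoREST corepressors, had 2266 and 3052 (0.64, interval 0.56 to 0.72). ZNF462, a chromatin factor with many zinc fingers, had 1472 and 1924 reads (0.60). ZNF687, a partner of ZMYND8 in a transcription complex, had 1760 and 1324 (-0.20, interval -0.31 to -0.10). Of the other proteins of that complex, chosen after their values were seen, ZNF592 had 1188 and 1514 reads (0.56) and ZNF532 1536 and 1544 (0.22), so the 3 related genes did not share a direction. ZNF750, a driver of epidermal differentiation, was barely expressed, with 8 and 21 reads.

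The SCAN domain, through which such factors pair with each other, is carried by 19 members of the list used (26 names, of which 7 older symbols were not among the table's names). Their median log2 fold change was 0.28, with 14 above 0, an interval above 0 for 9 and below 0 for 2. The most read of them were ZNF496 with 2580 and 2139 reads (-0.06, interval -0.14 to 0.02), ZNF24 with 1195 and 1222 (0.24, interval 0.13 to 0.36) and ZNF445, which maintains genomic imprints, with 1000 and 750 (-0.21, interval -0.34 to -0.07). The next most read were ZNF394 with 616 and 785 (0.56), ZNF213 with 722 and 653 (0.06) and ZNF263 with 537 and 795 (0.78). Higher values of this list were thus found among well-read genes and at lower read counts. An example of the latter was ZNF202, a repressor of lipid metabolism genes, with 286 and 443 (0.84).

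The corepressor genes through which KRAB proteins act had a median near 0. Of 17 names 16 had at least 10 reads, with a median log2 fold change of 0.00 and a median of 3286 reads. That fold change was 0.08 with total-count scaling and -0.11 with the trend in GC content and length removed. The interval was above 0 for 5 (31.25%) and below 0 for 7 (43.75%). These shares were close to the 31.6% and 40.8% of protein-coding genes with 1000 or more reads. TRIM28, the direct partner of the KRAB domain, had 10355 and 7210 reads and a log2 fold change of -0.31 (-0.36 to -0.27). CHD4, the remodeler of the NuRD complex, had 10999 and 9398 (-0.02, interval -0.06 to 0.02), and CBX3, a heterochromatin protein, had 3598 and 2383 (-0.38, interval -0.46 to -0.31). The methyltransferase SETDB1 had 1657 and 1330 reads (-0.11, interval -0.21 to -0.003), and its interval held 0 with TMM scaling and with total-count scaling. Chosen after their values were seen, the deacetylase HDAC1 had 1722 and 2014 reads (0.44), MORC3 368 and 494 (0.63) and the remodeler SMARCAD1 527 and 556 (0.29). TRIM28 transcripts were lower in the library in which most KRAB members were higher, and a relation between them was not tested.

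The members lay on 20 chromosomes, and the median log2 fold change was above 0 on 17 of them. It was below 0 on chromosome 14 (-0.25, n = 3), chromosome 18 (-0.05, n = 9) and chromosome 22 (-0.35, n = 3). On chromosome 18 the interval was above 0 for 4 members and below 0 for 1. All 10 members on chromosome 5 (median 0.58), all 7 on chromosome 11 (0.57) and all 7 on chromosome 15 (0.32) were above 0. The chromosomes named so far hold few members each. The chromosomes with most members, 16 (n = 29) and 7 (n = 28), had medians of 0.17 and 0.24. The higher values were thus not confined to a chromosome.

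**Figure D5:**
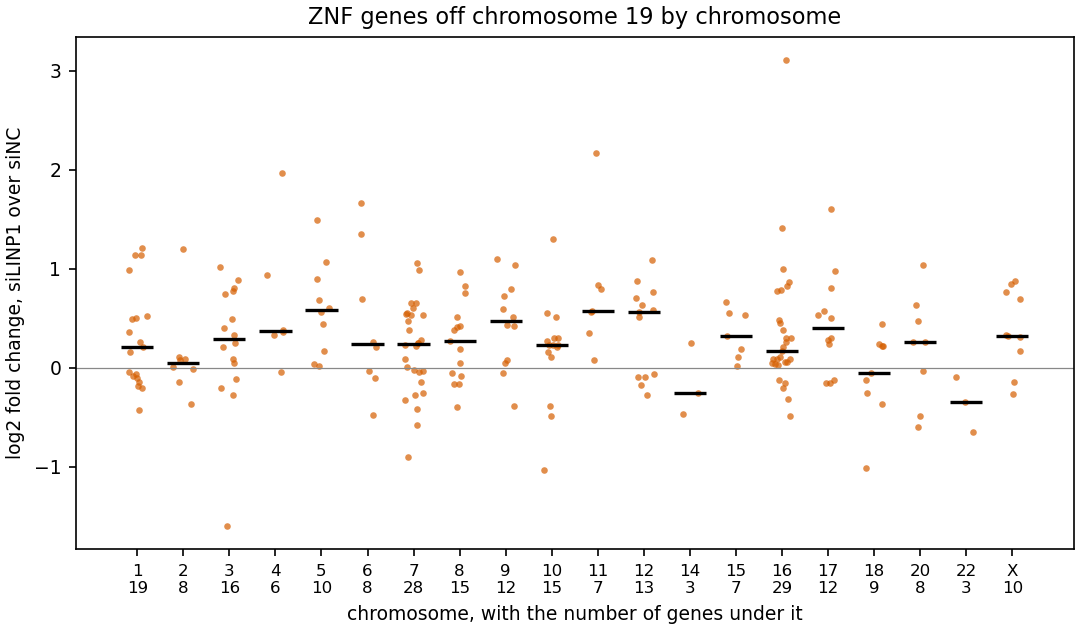
Each point is a ZNF gene, placed by chromosome (the number of genes stands under it) with its log2 fold change of siLINP1 over siNC on the vertical axis; horizontal bars are medians and the sideways spread has no meaning. The medians are above 0 on 17 of 20 chromosomes, and the highest point is ZNF267 on chromosome 16 at 3.11.

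Members less than 250 kb apart were joined into clusters, which gave 158 groups, 8 of them with at least 5 members. In the cluster on chromosome 16 at GRCh37 3162563 to 3493537, all 7 members were above 0 (median 0.30), from 0.06 for ZNF213 to 1.42 for ZNF597, and 4 had an interval above 0. In the cluster at the end of chromosome 12 (133498019 to 133783698), 5 of 7 had an interval above 0 (median 0.56), namely ZNF26, ZNF84, ZNF140, ZNF268 and ZNF10, the gene whose KRAB domain is widely used in engineered repressors. The other 2 there, ZNF605 with 284 and 231 reads and ZNF891 with 53 and 44, had intervals that held 0. In the cluster of 6 on chromosome 3 (44481262 to 44778575), the median was 0.79 and the range ran from -0.28 for ZNF501 with 7 and 5 reads to 1.02 for ZNF197, with ZNF445 in between at -0.21.

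The other 5 clusters had medians from 0.12 to 0.26. Members of a cluster differed in size, and in some clusters in direction. Among 67 pairs of neighbouring members with at least 100 reads each, both were above 0 in 42 (62.7%) and both below 0 in 3, and the median absolute difference within a pair was 0.41. In 10016 neighbouring pairs of protein-coding genes that difference was 0.34, with both above 0 in 22.2% and both below 0 in 3350 pairs. Of single genes with at least 10 reads, 71.8% of members and 46.1% of protein-coding genes were above 0, which by itself makes pairs of members more often both above 0.

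Many ZNF genes are related in sequence, and the sharing of sequence between transcripts was counted. Of 234 members with a transcript, 109 shared none of their 50-base windows with a transcript of another gene, 27 shared at least 10% and 5 at least 50% (ZNF23, ZNF410, ZNF658, ZNF286A and ZNF595). The 207 members that shared less than 10% had a median log2 fold change of 0.26, with an interval above 0 for 102 and below 0 for 23. The 171 members that overlapped no other gene with at least 10 reads had a median of 0.28, with an interval above 0 for 87 and below 0 for 15, and the 67 that did overlap, 57 of them on the opposite strand, had 0.21, with 26 and 11. Where the reads of single genes came from was not tested.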

How the data were processed

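RNA of HSC-1 cells was measured in 2 libraries, siNC and siLINP1, grouped by their labels. The authors aligned the reads to hg19 (GRCh37) with Tophat2 and deposited raw read counts per gene from HTSeq; the submitters' processing notes also name HISAT2, HISAT and Bowtie2, and versions, annotation and strand setting are not given in the sources used here. RPKM values deposited beside them were the same counts over gene length and library total. A further 12 columns with values of other samples were left unused.

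Counts were divided by median-of-ratios size factors (1.08 for siNC, 0.930 for siLINP1). Genes with fewer than 10 reads over both libraries were left out; for genes with 0 reads in a library, a floor of 3 counts set the bound. Intervals cover counting error only, and PCR duplicates are not independent molecules. With 1 library per condition no test was made. The members and gene lists were chosen with earlier results of these data known. Genes were named as follows: LINP1, the 10 higher and 10 lower members ranked by the interval end nearer to 0, the 5 members of highest RPKM, the most read genes of each list, and the genes next to the read minimum; others were named after their values were seen.

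GC content, length, proteins and shared 50-base windows came from GENCODE transcripts of GRCh37, and promoter windows from RefSeq (GRCh38.p14). A KRAB pattern and a C2H2 pattern (C, 2 to 4 residues, C, 12 residues, H, 3 to 5 residues, H) were searched in the translated coding sequence, which 231 members had. The alternatives were total-count and edgeR TMM scaling, pseudocounts of 1 and 5, minimums of 1 and 100 reads, members overlapping no other gene, and removal of a lowess trend (fraction 0.3) with GC content and length, added after the data were examined. The calculations were tested on simulated counts. The software was R 4.3.3 with edgeR 4.0.16 (TMM factors only) and Python 3.11.15 with scipy 1.17.1, pandas 2.3.3, Biopython 1.88, numpy 2.4.6, matplotlib 3.10.9 and statsmodels 0.14.6.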

Additional observations from a re-analysis of the deposited data

How the results depend on the processing

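The median log2 fold change of the ZNF genes off chromosome 19 stayed above 0 under every alternative run, from 0.23 with the trend in GC content and length removed to 0.34 with total-count scaling. Total-count scaling, which moves the median of all genes from -0.02 to 0.06, also gave 0.31 for members without a KRAB pattern, 1 member more than 2-fold lower and 15 with an interval below 0. No member was more than 2-fold lower (0) with a pseudocount of 5 or with at least 100 reads, and with at least 100 reads 2 were more than 1.5-fold lower. Among members overlapping no other gene 15 had an interval below 0, where fewer members were counted. With the trend removed, the chromosome 19 median was 0.40. The other 91 values of counts and medians stayed within 1.5 times (counts) or within the interval of the median over its genes, which is wide for short lists: the RNA, ribosome and spindle list went from 0.09 to 0.32 among genes overlapping no other, and the partner-protein list from 0.22 to 0.11 with the trend removed. Of 100 values for 25 single genes, 99 stayed within their counting interval, and ZNF598 moved to 0.12 with total-count scaling. No paired analysis was possible because each condition had 1 library.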
